A study of Mus musculus with 2 samples.

Results

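Chemokines are small secreted proteins that set the direction in which white blood cells move, and they act through receptors of the 7-transmembrane, G protein-coupled kind. Inflammatory chemokines are induced by injury or infection and draw in neutrophils, monocytes and eosinophils, whereas homeostatic chemokines are made steadily and place lymphocytes and progenitor cells in their niches. Atypical receptors bind chemokines without coupling to G proteins and take them out of circulation. In fat, stromal cells and macrophages are known sources of several inflammatory chemokines.

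The chemokine ligands and receptors described here were the protein-coding genes whose symbols place them in the Ccl, Cxcl, Cx3cl or Xcl ligand families, in the Ccr, Cxcr, Cx3cr or Xcr receptor families, or among the Ackr atypical receptors. They filled 66 of the 54532 lines of the expression table, under 60 different symbols, since copies of Ccl19, Ccl21 and Ccl27 stood on several lines. The rule goes by symbol and uses no measured value, though it was set with earlier results of these data known. By textbook use, 18 lines were placed with the inflammatory ligands, 17 with the homeostatic ligands, 9 with mixed ligands that serve in both settings or were not placed, 18 with signalling receptors and 4 with atypical receptors. Cxcl11 is listed as a polymorphic pseudogene and was therefore no member.

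The samples were labelled as adipose tissue of mice aged 3 to 4 weeks, from a Trappc9 knockout (KO) and from wild type (WT), and each genotype has 1 library. The Trappc9 protein belongs to the TRAPP complexes, which tether transport vesicles. The titles name stem cells from fat, the design text names digested abdominal pads of 3 mice per genotype, and the extraction protocol names pads frozen before RNA was taken. The sources used here do not say which of these was sequenced, whether mice were pooled or how the knockout allele was built.

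Values are deposited FPKM, that is fragments per kilobase of gene length scaled by library size, and rest on 14783728 recovered fragments in the library labelled KO and 13705193 in the library labelled WT. Trappc9 itself stood at 12.6 FPKM in the library labelled KO and 9.94 FPKM in the library labelled WT, which is no reduction over the whole gene, and the libraries are therefore called by their labels. With 1 library per genotype no difference has a replicate check and no p-value is given. A gene is called higher or lower beyond counting error where the exact 95% Clopper-Pearson interval of its KO over WT ratio of FPKM leaves out 1. That interval covers the counting of fragments only and compares these libraries, not the genotypes. Of the fixed markers, the adipocyte gene Adipoq stood at 0.506 and 2.30 FPKM (KO, then WT) and the fibroblast gene Dcn at 122 and 130 FPKM. The macrophage gene Cd68 stood at 13.7 and 12.5 FPKM, and the pan-leukocyte gene Ptprc at 1.06 and 1.12 FPKM. The 8 adipocyte markers summed to 35.9 FPKM in KO and 39.3 FPKM in WT, with 1 of 6 measured higher and 2 lower. Most of the adipocyte sum was Fabp4, the higher one, at 27.0 FPKM in KO and 25.1 FPKM in WT. The lower ones, Adipoq and Plin1, had ratios of 0.220 and 0.596. Retn, with a mean under 1 FPKM, was lower as well, with a ratio of 0.215. The sums do not show these lower ratios. The 6 mesothelial markers summed to 156 FPKM in KO and 158 FPKM in WT, with 2 higher and 4 lower. Most of that sum was Krt19, which was higher, at 104 FPKM in KO and 95.1 FPKM in WT. Upk1b was higher too, with a ratio of 1.71. The 4 lower ones, Msln, Lrrn4, Wt1 and Upk3b, had ratios of 0.687, 0.622, 0.607 and 0.468, which the near-equal sums do not show. Beside these adipocyte and mesothelial calls, 24.6% of all measured genes (defined below) were higher and 17.6% lower. After rescaling both libraries to the same sum (TPM), those shares were 7.88% and 48.4%. The adipocyte and mesothelial markers were not called again on that scale. The T cell gene Cd3e was low, at 0.223 and 0.173 FPKM, and the epididymal gene Gpx5, at 11686 and 10039 FPKM, was far above all of these. Fewer cells of a type and less RNA per cell cannot be told apart in such bulk libraries.

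A mean of at least 1 FPKM over both libraries was reached by 30 of the 66 members, which are called measured. These were 14 inflammatory ligands, 6 homeostatic ligands, 2 mixed ligands, 4 signalling receptors and 4 atypical receptors. All members together took 0.0595% of fragments in KO and 0.0702% in WT. The most abundant member was Cxcl14 in the library labelled KO, at 23.9 FPKM, and Cxcl1 in the library labelled WT, at 36.5 FPKM. In the library labelled KO 2116 protein-coding genes stood above that top member, and 1213 did in the library labelled WT.

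**Figure D1:**
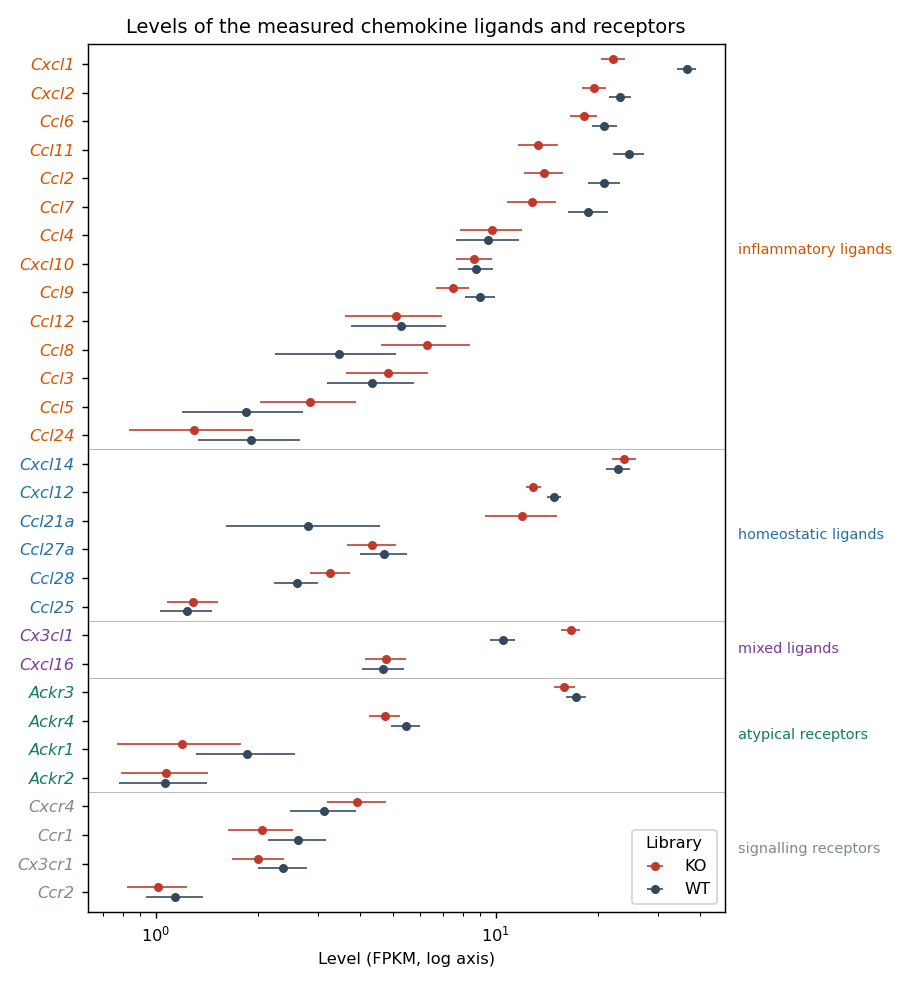
Level of each of the 30 measured chemokine ligands and receptors in FPKM on a log axis, in the library labelled KO (red) and the library labelled WT (dark blue); bars are exact 95% Poisson intervals of the counted fragments. Ligands fill the upper end, and Ackr3, at 15.9 FPKM in KO and 17.3 FPKM in WT, is the only receptor above 10 FPKM.

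Of the 30 measured members, 9 were lower in the library labelled KO beyond counting error (30.0%) and 4 were higher (13.3%), with 17 called neither way. Over all 13084 measured protein-coding genes, 17.6% were lower and 24.6% higher by the same call, 42.2% in either direction. After rescaling to TPM, which gives both libraries the same sum, 13 members were lower and 2 higher, beside 48.4% lower and 7.88% higher among all genes, whose median log2 ratio was then −0.15. The median log2((KO + 1)/(WT + 1)) was −0.09 over the members and 0.02 over all measured protein-coding genes. A single member, Ccl21a (higher), reached 2-fold on this scale and none reached it downward. Of all measured protein-coding genes 0.948% were at least 2-fold higher and 0.29% at least 2-fold lower, 1.24% in all.

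The inflammatory ligands made up 7 of the 9 lower members: Cxcl1, Cxcl2, Ccl2, Ccl6, Ccl7, Ccl9 and Ccl11. Ccl8 was higher beyond counting error, and the other 6 measured inflammatory ligands were called neither way. Lower calls thus reached 50.0% of the 14 measured inflammatory ligands, beside the 17.6% of all genes. The same 7 were lower under each scaling tried, but the share over all genes was 30.3% by total fragments and 48.4% after rescaling to TPM, so that under TPM the inflammatory share was near the background. Their summed level, over all 18 lines, was 147 FPKM in the library labelled KO and 190 FPKM in the library labelled WT, a ratio of 0.773 with a 95% counting interval of 0.734 to 0.814 by the delta method.

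**Figure D2:**
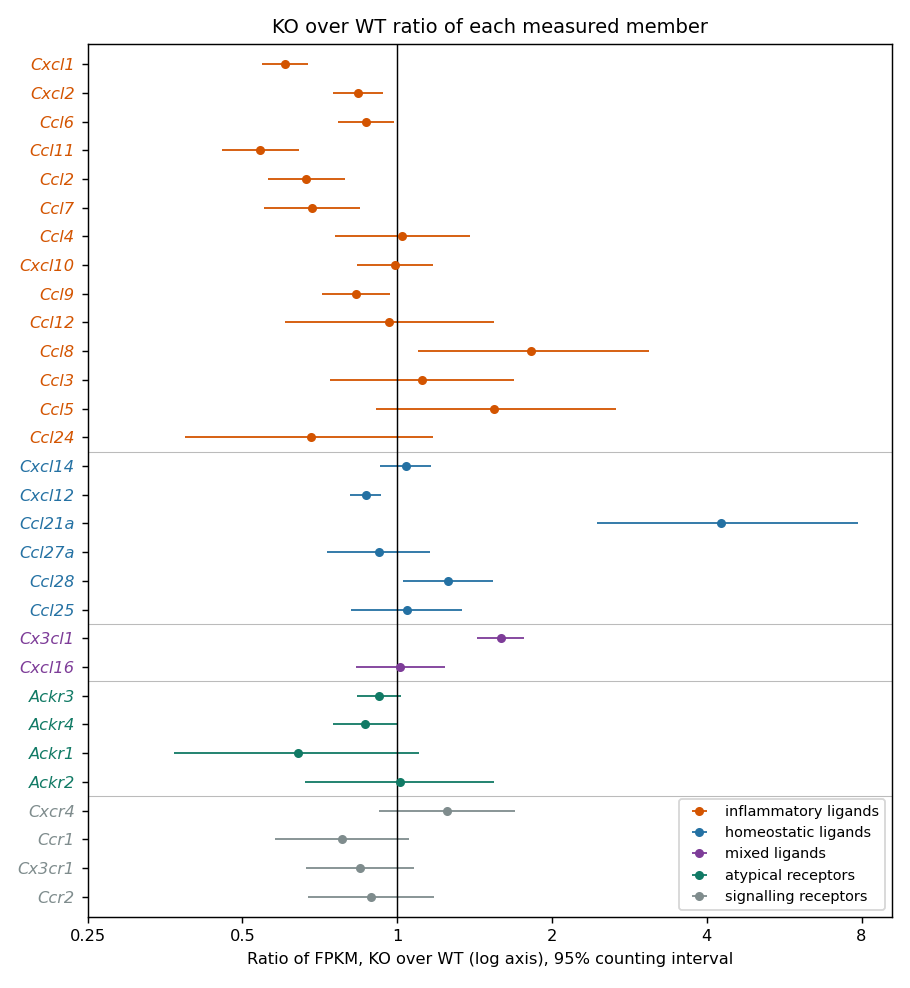
KO over WT ratio of FPKM for each measured member on a log axis; bars are exact 95% Clopper-Pearson counting intervals and the vertical line marks a ratio of 1. The intervals of Cxcl1, Ccl11, Ccl2 and Ccl7 lie left of the line, with Ccl11 at 0.542, and those of Cx3cl1 at 1.59 and Ccl21a at 4.27 lie right of it.

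Cxcl1, which attracts neutrophils through the receptor Cxcr2, stood at 22.1 FPKM (594 fragments) in the library labelled KO and 36.5 FPKM (970 fragments) in the library labelled WT. It was lower in the library labelled KO, with a ratio of 0.606 (0.547 to 0.672). Its neighbour Cxcl2, another ligand of Cxcr2, stood at 19.5 FPKM in KO and 23.2 FPKM in WT, lower by a smaller ratio of 0.840 (0.751 to 0.940). Cxcl3 and Cxcl5 belong to the same gene cluster on chromosome 5 (90759360 to 90905938, mm10) and attract neutrophils as well. They were close to absent, Cxcl3 with 0 fragments in KO and 5 in WT, and Cxcl5 with 5 in KO and 0 in WT. Cxcl15, the other member in the cluster, had 10 fragments in KO and 4 in WT. Cxcr2 had 0 fragments in KO and 2 in WT, while Cxcr1 had none, with limits of 0.141 FPKM in KO and 0.142 FPKM in WT at 3 fragments. The neutrophil list was scarce too: 2 of its 10 genes were measured, and its summed level was 3.93 FPKM in KO and 7.95 FPKM in WT. The granule gene Elane was at 0 in both. The part of neutrophils in the Cxcl1 and Cxcl2 values was not tested.

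RefSeq promoter windows (250 bases before to 50 after the start, GRCm38.p6) were on hand for 45 of the 60 member symbols. Those of Cxcl1 and Cxcl2 are printed because these neighbours were both lower and share 3 runs of at least 10 letters, which are in capitals. Those of Ccl8 and Cx3cl1 are printed for comparison, as these members were higher, with TATAAA, the letters of a TATA box, in capitals. All are given 5′ to 3′ on the plus strand.
Cxcl1 (chr5:90890995-90891294): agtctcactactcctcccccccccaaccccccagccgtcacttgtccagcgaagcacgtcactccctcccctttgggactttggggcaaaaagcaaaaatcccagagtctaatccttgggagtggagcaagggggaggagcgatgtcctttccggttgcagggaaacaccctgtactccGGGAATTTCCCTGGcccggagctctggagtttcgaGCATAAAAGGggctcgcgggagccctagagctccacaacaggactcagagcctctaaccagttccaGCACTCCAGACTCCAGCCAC
Cxcl2 (chr5:90903649-90903948): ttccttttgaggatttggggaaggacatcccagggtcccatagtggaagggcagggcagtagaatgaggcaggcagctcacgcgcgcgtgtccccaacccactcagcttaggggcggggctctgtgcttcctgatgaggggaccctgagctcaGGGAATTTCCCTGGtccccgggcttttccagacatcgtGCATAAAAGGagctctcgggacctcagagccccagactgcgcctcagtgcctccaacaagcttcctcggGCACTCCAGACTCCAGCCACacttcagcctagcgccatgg
Ccl8 (chr11:82114935-82115234): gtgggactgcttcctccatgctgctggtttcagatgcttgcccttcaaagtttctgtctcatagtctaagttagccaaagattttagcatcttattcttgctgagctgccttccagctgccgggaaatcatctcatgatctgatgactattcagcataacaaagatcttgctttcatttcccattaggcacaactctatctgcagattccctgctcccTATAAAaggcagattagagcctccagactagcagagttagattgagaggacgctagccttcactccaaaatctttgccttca
Cx3cl1 (chr8:94771930-94772229): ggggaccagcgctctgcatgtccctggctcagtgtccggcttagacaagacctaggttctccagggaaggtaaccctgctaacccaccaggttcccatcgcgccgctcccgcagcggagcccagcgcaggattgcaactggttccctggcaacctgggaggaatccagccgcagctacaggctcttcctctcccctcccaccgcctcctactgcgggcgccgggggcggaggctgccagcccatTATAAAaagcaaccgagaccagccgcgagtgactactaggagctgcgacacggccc
The shared 14-base run GGGAATTTCCCTGG, whose letters open with a form known as a binding site of NF-kB, began 71 bases before the start of Cxcl1 and 97 bases before that of Cxcl2. Searched on both strands, it was in 2 of 27025 windows with 1 start per gene (0.0074%), which are these. GCATAAAAGG began 36 bases before the start of Cxcl1 and 59 bases before that of Cxcl2, and was in 19 windows (0.0703%). The 20-base run GCACTCCAGACTCCAGCCAC lay after the start of both and was again in these 2 windows alone. TATAAA was in 14.2% of all windows and in 12 of the 45 member windows, and began 32 bases before the start of Ccl8 and 6 bases before that of Cx3cl1. TGANTCA, a form of the AP-1 site, was in 7.93% of all windows and in 6 member windows, but in none of the 4 printed. No motif searched overlapped another in the printed windows. They were chosen with the values and sequences in view, and a match is a description only.

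Neighbouring CC ligands on chromosome 11 did not share a direction. The first cluster (82035571 to 82305690, mm10) holds Ccl2, Ccl7, Ccl11, Ccl12, Ccl8 and Ccl1 in this order. Ccl2, the main monocyte attractant, stood at 13.9 FPKM in the library labelled KO and 20.8 FPKM in the library labelled WT, a ratio of 0.666 (0.560 to 0.791). Ccl7, which acts with Ccl2 on Ccr2, stood at 12.8 FPKM in KO and 18.8 FPKM in WT, a ratio of 0.683 (0.550 to 0.847). Ccl11, or eotaxin, which attracts eosinophils through Ccr3, had the lowest ratio of all measured members. It stood at 13.4 FPKM (207 fragments) in KO and 24.7 FPKM (378 fragments) in WT, a ratio of 0.542 (0.456 to 0.644).

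Further along the same cluster the picture differed. Ccl12, also a ligand of Ccr2 in mice, stood at 5.08 FPKM in KO and 5.26 FPKM in WT, within counting error at a ratio of 0.965 (0.605 to 1.54). Ccl8, which in mice acts on Ccr8, was higher in the library labelled KO, at 6.29 FPKM from 46 fragments, against 3.45 FPKM from 25 fragments in the library labelled WT. Its ratio was 1.82 (1.10 to 3.09), a call that was lost after rescaling to TPM. Ccl1 had 1 fragment in KO and 0 in WT. The cluster as a whole therefore held 3 lower and 1 higher member among 5 measured. Of all measured genes 17.6% were lower and 24.6% higher, or 48.4% and 7.88% after rescaling to TPM.

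**Figure D3:**
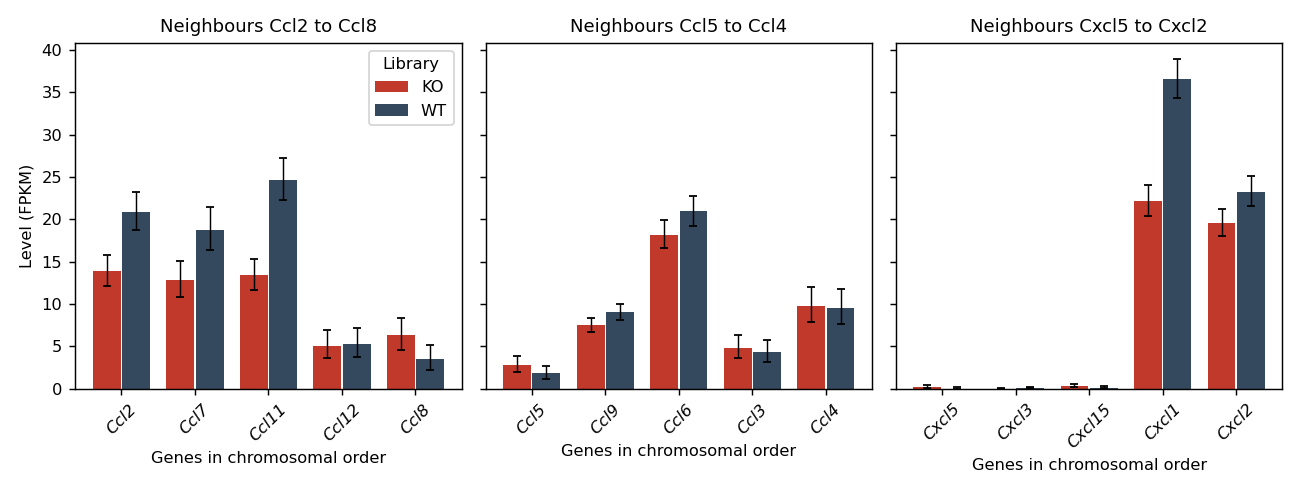
Level in FPKM of neighbouring chemokine genes in 3 clusters, in chromosomal order, in the library labelled KO (red) and the library labelled WT (dark blue); bars start at 0 and whiskers are exact 95% Poisson intervals. The bars of Ccl2, Ccl7 and Ccl11 are lower in KO, next to Ccl12 with 5.08 FPKM in KO and 5.26 FPKM in WT and to Ccl8, which is higher in KO.

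The other cluster on chromosome 11 (83525778 to 83664683) holds Ccl5, Ccl9, Ccl6, Ccl3 and Ccl4, ligands that macrophages and lymphocytes make. Ccl6 and Ccl9, ligands of Ccr1 known from mouse myeloid cells, were both lower, by small amounts. Ccl6 stood at 18.2 FPKM in KO and 20.9 FPKM in WT, a ratio of 0.869 (0.766 to 0.986). Ccl9 stood at 7.48 FPKM in KO and 8.996 FPKM in WT, a ratio of 0.832 (0.716 to 0.966). Ccl3 and Ccl4, the macrophage inflammatory proteins, were within counting error, as was Ccl5, the ligand made by activated T cells. Ccl3 stood at 4.84 FPKM in KO and 4.33 FPKM in WT, and Ccl4 at 9.74 FPKM in KO and 9.52 FPKM in WT. Ccl5 had the largest ratio of this cluster, 1.54, but its interval ran from 0.912 to 2.66 on 39 fragments in KO and 25 in WT.

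Cxcl10, which interferon induces and which attracts T cells through Cxcr3, was nearly equal, at 8.66 FPKM in KO and 8.75 FPKM in WT, with 279 fragments in each. Cxcl9, its neighbour and fellow ligand of Cxcr3, did not pass the filter, at 0.394 FPKM from 17 fragments in KO and 0.843 FPKM from 36 fragments in WT. Its ratio was 0.468 (0.246 to 0.854). Ccl24, another eosinophil attractant, stood at 1.30 FPKM in KO and 1.91 FPKM in WT and was within counting error (ratio 0.386 to 1.17).

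Marker genes of cells known to make these ligands went both ways. Over all measured protein-coding genes, 17.6% were lower and 24.6% higher beyond counting error, or 48.4% and 7.88% after rescaling to TPM. The marker lists were not called again under TPM. Of 10 fibroblast and progenitor markers, 7 were lower and 2 higher beyond counting error. Their summed level was 1019 FPKM in KO and 1378 FPKM in WT. Most of it came from Col1a1 (377 and 531 FPKM) and Col3a1 (312 and 481 FPKM). Cd34, on progenitor cells, stood at 27.4 FPKM in KO and 52.6 FPKM in WT. The 12 macrophage markers had 2 lower and 2 higher, with sums of 294 FPKM in KO and 296 FPKM in WT. The macrophage gene Mrc1 was lower, at 7.87 FPKM in KO and 10.6 FPKM in WT, while Csf1r, at 14.6 FPKM in KO and 15.2 FPKM in WT, was not called. Of 7 monocyte markers 2 were measured, with F13a1 lower and Plac8 higher, and the list summed to 89.4 FPKM in KO and 76.8 FPKM in WT. Of 10 mast cell and eosinophil markers 5 were measured, 1 of them, Tpsb2, higher, and they summed to 17.7 FPKM in KO and 14.2 FPKM in WT. The eosinophil gene Epx was near 0, at 0.0255 FPKM in KO and 0.103 FPKM in WT. No marker of these lists was at 0 in both libraries. The part of these cells in the lower inflammatory ligands was not tested.

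The homeostatic ligands had 2 higher (33.3%) and 1 lower (16.7%) among 6 measured members, near the 24.6% and 17.6% of all genes. Their summed level over 17 lines was 58.8 FPKM in the library labelled KO and 51.6 FPKM in the library labelled WT. Without the Ccl21 copies, a choice made after the values were seen, the sums were 46.7 FPKM in KO and 48.3 FPKM in WT, a ratio of 0.967 (0.904 to 1.03). The direction of the class thus rested on Ccl21, and after rescaling to TPM the log2 ratio of its sums was −0.0116.

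Ccl21 draws dendritic cells and naive T cells bearing Ccr7 into lymph vessels and lymph nodes, and it had the largest ratio of all measured members. The line named Ccl21a on JH584294.1, a scaffold outside the assembled chromosomes (121048 to 121713), stood at 12.0 FPKM in KO from 69 fragments and at 2.81 FPKM in WT from 16 fragments. Its ratio was 4.27 (2.45 to 7.88), and its log2 ratio 1.77. The mouse carries near-identical Ccl21 copies, and in the GENCODE M21 transcripts the 402 bases of Ccl21b matched Ccl21a at 400, an identity of 99.5%. That Ccl21a transcript has 870 bases, the length of the Ccl21a line on chromosome 4. The line on the scaffold, 402 bases long, was not itself compared. Counting may split reads among such copies, so the line on the scaffold is uncertain as a single gene. Summed over the 6 Ccl21 lines there were 71 fragments in KO and 22 in WT. Of the other 5 lines, 3 had no fragment, 1 had 1 in KO and 6 in WT, and 1 had 1 in KO and 0 in WT.

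Genes that act beside Ccl21 were mostly too low to show a difference. Ccl19, the other ligand of Ccr7, had no fragment on either of its 2 lines. Ccr7 itself had 4 fragments in KO and 7 in WT. Cxcl13, which organises B cell follicles, had 8 fragments in KO and 14 in WT, and its receptor Cxcr5 had 3 in KO and 4 in WT. Of 6 lymphatic endothelial markers, 4 were measured, 1 was lower and none was higher, beside 17.6% of all genes lower and 24.6% higher. Their sums were 47.1 FPKM in KO and 49.9 FPKM in WT. The lower one, Lyve1, stood at 9.80 FPKM in KO and 11.7 FPKM in WT, and Prox1, which defines these cells, was within counting error at 0.592 FPKM in KO and 0.715 FPKM in WT. Reln, under the filter like Prox1, was higher beyond counting error, at 0.910 FPKM in KO and 0.660 FPKM in WT, and Mmrn1 was within it at 3.07 FPKM in KO and 2.59 FPKM in WT. The 6 B cell markers summed to 0.980 FPKM in KO and 1.19 FPKM in WT, and the 10 T and NK cell markers to 2.53 FPKM in KO and 1.85 FPKM in WT.

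The 2 most abundant homeostatic ligands differed little. Cxcl14, made by stromal and epithelial cells, stood at 23.9 FPKM in KO and 23.0 FPKM in WT, a ratio of 1.04 (0.928 to 1.17). Cxcl12, the ligand of Cxcr4 that holds blood progenitors in their niche, was lower at 12.9 FPKM in KO and 14.9 FPKM in WT, a ratio of 0.869 (0.810 to 0.932). With 1511 fragments in KO and 1722 in WT it was the most deeply counted member and had the narrowest interval of its class.

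Ligands known from epithelia came next. Ccl28, which mucosal and glandular epithelium makes, was higher, at 3.26 FPKM in KO and 2.59 FPKM in WT, with an interval of 1.03 to 1.54 that took in 1 after rescaling to TPM or to total fragments. Ccl27a on chromosome 4, known from skin, stood at 4.32 FPKM in KO and 4.69 FPKM in WT, and its other lines, with Ccl27b, held 5 fragments in KO and 9 in WT. Ccl25, known from thymus and small intestine, stood at 1.29 FPKM in KO and 1.23 FPKM in WT. Both were within counting error. In the same libraries 12 of 14 epididymal epithelial markers were higher and 1, Epcam, was lower, with sums of 28575 FPKM in KO and 20820 FPKM in WT. Over all measured genes 24.6% were higher and 17.6% lower. The part of this epithelium in Ccl28 was not tested.

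Among the mixed ligands Cx3cl1 had the clearest difference. It encodes a chemokine that stays anchored on endothelial, epithelial and neural cells and is shed to act on Cx3cr1. Its level was 16.7 FPKM from 938 fragments in the library labelled KO, against 10.5 FPKM from 584 fragments in the library labelled WT, a ratio of 1.59 (1.43 to 1.77). Cxcl16, the other membrane-anchored chemokine, was nearly equal, at 4.74 FPKM in KO and 4.67 FPKM in WT. Exons of Zmynd15 on the opposite strand cover 18.3% of its exonic bases, and no strand setting is given in the sources used here. Of 8 blood endothelial markers, 4 were higher and 1 was lower, beside 24.6% of all genes higher and 17.6% lower. Their sums were 62.5 FPKM in KO and 56.9 FPKM in WT. Rescaling to TPM multiplies KO over WT by 0.869, which puts the KO sum below that of WT. The part of endothelial or epithelial cells in the Cx3cl1 value was not tested.

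Cx3cl1 lies on chromosome 8 between Ccl22 and Ccl17, ligands of Ccr4 from dendritic cells (94745590 to 94812036 for all 3). Neither passed the filter. Ccl22 was equal, with 16 fragments in each library. Ccl17 had 7 fragments in KO, at 0.952 FPKM, and 0 in WT, where 3 fragments would have been 0.412 FPKM. The lower end of its 95% counting interval was a ratio of 1.43. Of 9 dendritic cell markers, 6 were measured, with Itgae higher and Clec10a lower, beside 24.6% of all genes higher and 17.6% lower. Their sums were 24.0 FPKM in KO and 24.2 FPKM in WT. The remaining mixed ligands, Xcl1, Cxcl15, Cxcl17, Ccl20 and Ccl1, had between 0 and 10 fragments per library, too few to show a difference.

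Receptors held less of the summed level than ligands. The 22 receptor genes summed to 34.9 FPKM in the library labelled KO and 38.3 FPKM in the library labelled WT, against 230 FPKM in KO and 258 FPKM in WT for the 44 ligand lines. Of the 8 measured receptors 1 was lower, 0 were higher and 7 were called neither way, beside 17.6% of all genes lower and 24.6% higher, and their median log2 ratio was −0.14. After rescaling to TPM 5 of the 8 were lower (62.5%), beside 48.4% of all genes. The ratio of the receptor sums was 0.910 (0.849 to 0.977) and that of all ligand sums 0.889 (0.853 to 0.927), intervals that overlap.

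The atypical receptors carried most of the receptor signal. Ackr3, which scavenges Cxcl12, stood at 15.9 FPKM in KO and 17.3 FPKM in WT, a ratio of 0.921 (0.834 to 1.02). That was above Cxcr4, the signalling receptor of the same ligand, at 3.91 FPKM in KO and 3.12 FPKM in WT. Cxcr4 had a ratio of 1.25 (0.923 to 1.70), so all of Cxcl12, Cxcr4 and Ackr3 lay between 0.869 and 1.25.

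Ackr4, which scavenges Ccl19, Ccl21 and Ccl25, was the receptor called lower, at 4.72 FPKM in KO and 5.45 FPKM in WT. Its ratio was 0.866 and its interval, 0.750 to 0.9996, hardly left out 1. Ackr2, the scavenger of inflammatory CC ligands, was nearly equal at 1.07 FPKM in KO and 1.06 FPKM in WT. Ackr1, which carries chemokines across venules, stood at 1.19 FPKM from 24 fragments in KO and 1.86 FPKM from 37 fragments in WT, within counting error, and shares 25.7% of its exonic bases with Cadm3 on the same strand.

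Receptors of the inflammatory ligands were scarce in both libraries, as was Cx3cr1, the receptor of the mixed ligand Cx3cl1. Ccr1 stood at 2.05 FPKM in KO and 2.62 FPKM in WT, and Ccr2, the monocyte receptor of Ccl2 and Ccl7, at 1.01 FPKM in KO and 1.14 FPKM in WT. Cx3cr1, on macrophages and monocytes, stood at 2.002 FPKM in KO and 2.37 FPKM in WT. All 3 had ratios below 1, between 0.783 and 0.890, with intervals that took in 1. For Cx3cr1 the interval was 0.664 to 1.08, while that of its ligand Cx3cl1 lay above 1.

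The other 14 signalling receptors did not pass the filter, with Ccr10 the highest at 0.891 FPKM in KO and 0.777 FPKM in WT. Cxcr6, the receptor of Cxcl16, had 22 fragments in KO and 17 in WT. Ccr3, the eotaxin receptor, had 10 in KO and 16 in WT. Ccr6, the receptor of Ccl20, had none, with limits of 0.0904 FPKM in KO and 0.0913 FPKM in WT. Differences in these receptors were not detectable at this depth.

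**Figure D4:**
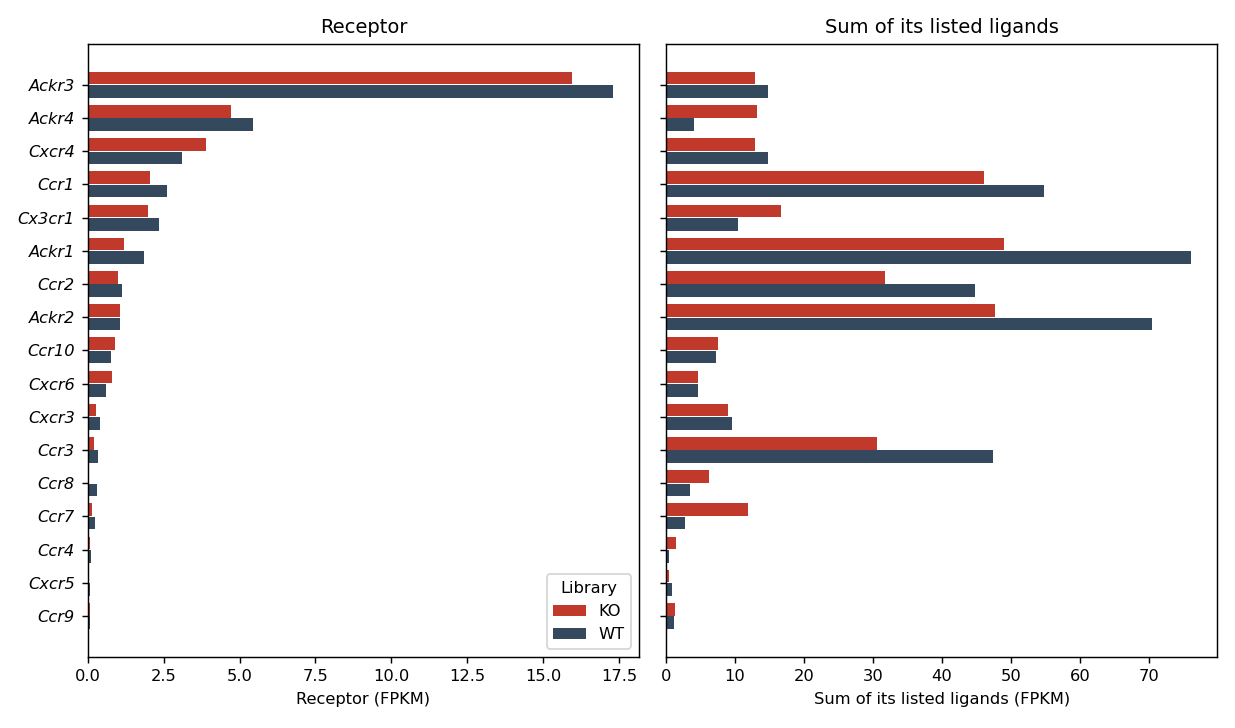
Level in FPKM of 17 receptors with a mean of at least 0.05 FPKM (left) and the summed level of its ligands as listed from textbook pairs (right), in the library labelled KO (red) and the library labelled WT (dark blue); a ligand can count for several receptors. Ligands of Ccr2 sum to 31.8 FPKM in KO and 44.9 FPKM in WT beside a receptor at 1.01 FPKM in KO and 1.14 FPKM in WT.

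Set beside their receptors, the lower inflammatory ligands were spread over Ccr1, Ccr2, Ccr3 and Cxcr2 and over the scavengers Ackr1 and Ackr2. Ligands of Ccr1 (Ccl3, Ccl5, Ccl6, Ccl7 and Ccl9) summed to 46.2 FPKM in KO and 54.9 FPKM in WT. Ligands of Ccr2 (Ccl2, Ccl7 and Ccl12) summed to 31.8 FPKM in KO and 44.9 FPKM in WT. Ligands of Ccr3 (Ccl5, Ccl7, Ccl11, Ccl24 and Ccl26) summed to 30.6 FPKM in KO and 47.4 FPKM in WT, and those of Cxcr2 to 41.9 FPKM in KO and 59.9 FPKM in WT. The listed ligands of Ackr1 summed to 49.0 FPKM in KO and 76.1 FPKM in WT, and those of Ackr2 to 47.8 FPKM in KO and 70.5 FPKM in WT. Ligands of Cxcr6 and Ccr10 were not lower as sums, at 4.74 and 7.59 FPKM in KO and 4.67 and 7.29 FPKM in WT. Nor were those of Ackr4 (13.3 FPKM in KO and 4.04 FPKM in WT) and Ccr7 (12.0 and 2.81 FPKM), which hold Ccl21a. The same held for Cx3cr1 (16.7 and 10.5 FPKM), Ccr8 (6.32 and 3.45 FPKM), Ccr4 (1.43 and 0.486 FPKM) and Ccr9 (1.29 and 1.23 FPKM). Ligand sums of Ackr3, Cxcr4, Cxcr3, Cxcr5, Ccr6 and Xcr1 were lower in KO. These sums share members and are descriptions without a test.

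Genes downstream of the receptors differed in small steps. Of 43 listed genes for G protein subunits, kinases, arrestins and motility factors, 37 were measured, and 9 were higher and 3 lower beyond counting error. Over all measured genes 24.6% were higher and 17.6% lower. The median log2 ratio of the list was 0.02, as over all genes. The highest ratios were those of Gng5, a G protein gamma subunit (57.7 FPKM in KO and 40.0 FPKM in WT), Prex1, a Rac activator (3.92 FPKM in KO and 2.52 FPKM in WT), and Pak1, a kinase that Rac activates (3.99 FPKM in KO and 2.86 FPKM in WT). Those with the lowest were Rgs16, which shortens G protein signals (4.03 FPKM in KO and 4.83 FPKM in WT), the receptor kinase gene Grk3 (3.56 FPKM in KO and 4.17 FPKM in WT) and Gng12 (32.9 FPKM in KO and 36.3 FPKM in WT). Rgs16 was within counting error. Gnai2, the main inhibitory G protein of white blood cells, was nearly equal, at 97.2 FPKM in KO and 98.5 FPKM in WT.

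Of 10 listed chemokine-related genes whose symbols fall outside the families above, 8 were measured, 3 were higher and 1 was lower. Over all measured genes 24.6% were higher and 17.6% lower, and so few genes cannot be set apart from that share. Cd74, which encodes the invariant chain and a receptor of Mif, was higher, at 169 FPKM in KO and 113 FPKM in WT, and Cmtm3 was lower, at 9.22 FPKM in KO and 10.8 FPKM in WT. The platelet chemokine gene Pf4 stood at 11.2 FPKM in KO and 12.4 FPKM in WT and its neighbour Ppbp had 2 fragments in KO and 3 in WT. Mif, a cytokine that can bind chemokine receptors, was higher, at 116 FPKM in KO and 82.4 FPKM in WT. Ccrl2, a receptor-like protein that presents chemerin, was higher too, at 6.16 FPKM in KO and 4.97 FPKM in WT, whereas the chemerin receptor Cmklr1, at 2.79 FPKM in KO and 3.40 FPKM in WT, was within counting error.

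**Figure D5:**
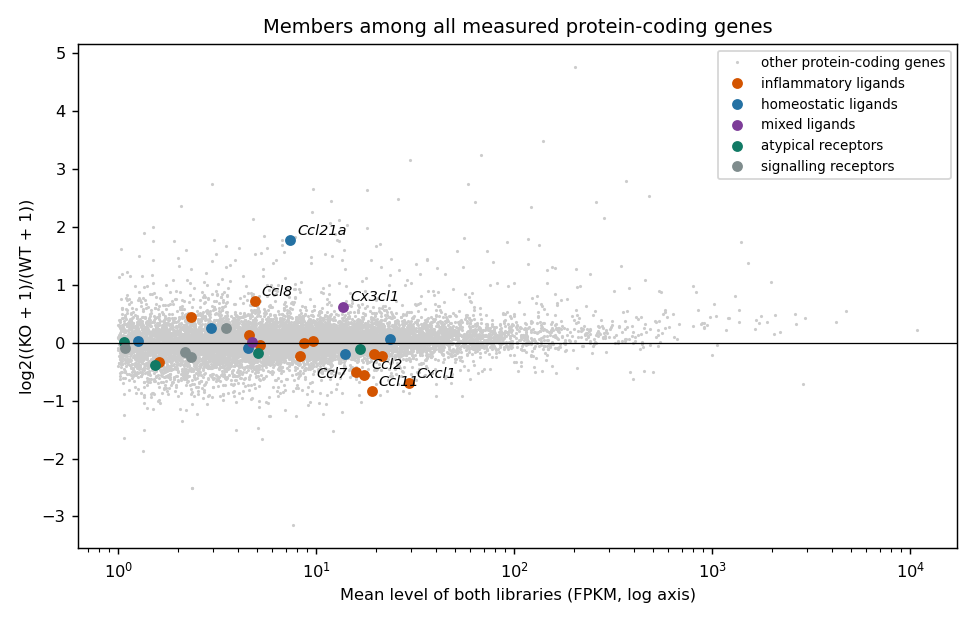
log2((KO + 1)/(WT + 1)) against the mean level in FPKM (log axis) for all 13084 measured protein-coding genes; grey points are genes outside the chemokine families and coloured points are the 30 measured members by class. Ccl21a at 1.77 lies above the grey cloud's centre, and Ccl11 at −0.84 and Cxcl1 at −0.70 lie below it.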

How the data were processed

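RNA was sequenced from 1 library per genotype (Illumina TruSeq RNA kit, per the labels' protocols). The authors deposited FPKM values per gene with gene lengths and positions; the aligner HISAT2 2.0.5 is named beside builds mm10 and hg38 in the submitters' processing notes, and no source used here names the counting program. FPKM times length was a whole multiple of 1 step for 100% of values above 0 (within 0.01 fragment), which gave the fragments per gene and library. The deposited scaling was kept. Log2 ratios were taken after adding 1 FPKM, so changes of low genes are understated, and a gene was measured at a mean of at least 1 FPKM. Where a symbol outside the chemokine families stood on several lines, the line with the highest mean was used. Intervals and floors (3 fragments) cover counting error only; no count test was run, and no label mentions molecular identifiers. The interval code was tested on simulated data. Members and lists were chosen with earlier results of these data known. Named were Trappc9, all measured members, low members of receptor pairs, the 3 highest and 3 lowest signalling genes, and fixed markers; other names, such as Gpx5, Mrc1, Plac8 and Gnai2, were chosen after values were seen. Values of 1 receptor are not reported here, though class counts and sums hold it. Exon overlaps came from GENCODE M21. Python 3.11.15, numpy 2.4.6, scipy 1.17.1, pandas 2.3.3 and matplotlib 3.10.9 were used. The scalings, filters, pseudocounts, interval and fold limits tried are given with their effect at the end.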

Additional observations from a re-analysis of the deposited data

How the results depend on the processing

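No paired analysis was possible because each genotype has 1 library, and no library could be left out. Results moved mainly with the scaling between libraries. Rescaling to TPM (equal sums in both libraries) moved all log2 ratios by −0.20 before the pseudocount, and rescaling without the 100 most abundant genes by −0.10. The 9 lower members stayed lower beyond counting error under all 4 scalings tried, and Cx3cl1 and Ccl21a stayed higher, whereas Ccl8 lost its call under TPM and Ccl28 under TPM, total fragments and the scaling without abundant genes. Under TPM 2 members passed upward and 13 downward, beside 7.88% and 48.4% of measured genes, 5 of 8 receptors were lower, and 2 members reached 2-fold, the added one being Ccl11 at −1.03. The log2 ratio of summed inflammatory ligands was −0.37 as reported, −0.57 under TPM, −0.47 by total fragments, −0.48 without the abundant genes, −0.27 with mixed ligands added and −0.24 without Ccl11, Ccl2 and Ccl7, the last chosen after seeing the data. Their median was −0.21 as reported and −0.04 without these 3 genes. The summed homeostatic ligands, at 0.19, turned to −0.0116 under TPM and to −0.0480 without the Ccl21 copies (an alternative chosen after seeing the data). Summed receptors stood at −0.14 as reported, −0.34 under TPM and −0.24 without the abundant genes. Under TPM the signalling list's median was −0.17 and Trappc9's log2 ratio 0.13. Mixed ligands had a median of 0.32, which was 0.0420 without the filter and 0.62 with a minimum of 5 FPKM. Of the 4 higher members 2 were left with that minimum and 2 with a 99% interval, under which 6 of 9 lower ones were left. With the 99% interval 18.7% of all measured genes were higher and 12.6% lower. At 1.5-fold 5 members were counted, and without the Ccl21 copies 0 reached 2-fold. The share over all genes was not taken at 1.5-fold or with the minimum of 5 FPKM. Both pseudocounts (0.1 and 5 FPKM) and centring on the median gene left every count of members within 1.5 times. Depth limits the 36 members under the filter, 8 of which had no fragment in either library.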
